A study of Rattus norvegicus with 9 samples.

Results

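Chemokine-producing neutrophils at the tibial osteotomy site of rats were chosen by their measured transcripts in single-cell RNA sequencing libraries. A cell was taken as a member if, per 10000 of its UMIs (unique molecular identifiers, 1 per captured transcript), at least 20 came from the chemokine genes Cxcl1, Cxcl2 and Cxcl3 together and at least 300 from S100a8 and S100a9 together. Fewer than 100 had to come from the secondary granule genes Ngp, Camp and Lcn2, fewer than 50 from the defensin genes RatNP-3b, Np4, Defa11 and Defa5, and no UMI from the monocyte receptor gene Csf1r. Cells entered only with at least 200 detected genes and at most 20% mitochondrial UMIs. The rule found 1887 members among 114232 kept cells, or 1.65%. Another 5315 cells passed every part of the rule apart from the chemokine threshold and are called chemokine-low neutrophils here, so that members made up 26.2% of the 7202 neutrophils of this gate. These thresholds were set on measured values, and the levels of the 13 genes of the rule are given only as a description.

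The series used Sprague-Dawley rats aged 6 to 8 weeks, all male according to the methods of the study. In both arms the proximal tibia carried a circular osteotomy of 3 mm, and the dorsum of the foot on the same side carried a full-thickness skin wound of 4 mm. The TO libraries came from osteotomy without radial extracorporeal shock wave therapy (rESWT), and the TOE libraries from osteotomy with rESWT given over the cut bone on day 2 and again on day 4. The TOE 2d libraries were taken before the day 4 session. Tissue of the osteotomy site was taken 4 h or 24 h after the session time, or at 0 h on day 2 before any session. The 8 libraries analysed were TO 2d 0h, TO 2d 4h, TO 4d 4h, TO 4d 24h, TOE 2d 4h, TOE 2d 24h, TOE 4d 4h and TOE 4d 24h, while TO 2d 24h was not analysed here. The design names 9 rats for 9 samples and the sources do not assign rats to libraries, so each condition is 1 library. TOE and TO were set side by side in the 3 pairs matched for day and hour and not tested, and an exact two-sided permutation within 3 pairs could not give a p below 0.25. The libraries held 12329 to 16945 kept cells and 95954800 to 144146202 UMIs.

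Neutrophils are short-lived granulocytes that reach injured tissue first. They make granule proteins while they mature in the bone marrow and carry S100a8 and S100a9, whose products form calprotectin, in abundance. Cxcl1, Cxcl2 and Cxcl3 encode ligands of the receptor Cxcr2, which neutrophils themselves bear, so that a neutrophil which makes these chemokines can call in further neutrophils. Transcription of these ligands is switched on by NF-κB downstream of the receptors for microbial and damage products and for interleukin-1. NF-κB also switches on its own inhibitors, among them Nfkbia and Tnfaip3.

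The promoter windows below are shown for the chemokines Cxcl1 and Cxcl2 of the rule and for NF-κB inhibitors that members also held. Cxcl3 is named only. A motif spelled GGGA, any base, TT, any base, CC, which is a core form of the site bound by NF-κB, was searched on both strands in the 250 bases before each gene's start in RefSeq, build GRCr8, and its match is in capitals. All 4 genes lie on the minus strand, and each sequence reads 5′ to 3′ in the direction of the gene.
Cxcl1, chr14:17479371-17479430, match beginning 84 bases before the start: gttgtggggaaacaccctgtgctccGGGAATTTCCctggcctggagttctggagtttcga
Cxcl2, chr14:17467294-17467353, match beginning 73 bases before the start: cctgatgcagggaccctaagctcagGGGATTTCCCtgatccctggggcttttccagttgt
Nfkbia, chr6:78597073-78597128, match beginning 31 bases before the start: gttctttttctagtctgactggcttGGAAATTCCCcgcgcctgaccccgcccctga
Tnfaip3, chr1:15544012-15544071, match beginning 67 bases before the start: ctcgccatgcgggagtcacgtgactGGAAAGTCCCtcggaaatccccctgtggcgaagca
The motif was found in 326 of 33469 promoters of the same length, or 0.974%. The windows of Il1b and Il1a held no match to these letters. Coordinates here belong to GRCr8 and not to the build on which the reads were counted.

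Cxcl2 made up nearly all of the chemokine transcripts of the members. Of the UMIs of the 3 chemokine genes in members, 96.2% were from Cxcl2, and 99.8% of members held at least 1 Cxcl2 UMI. Cxcl1 was detected in 14.2% of members and Cxcl3 in 11.5%. In 1455 members, or 77.1%, Cxcl2 was the only one of these genes detected, whereas 51 members held all 3 and 4 members held no Cxcl2.

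The level of a gene is its CPM, the UMIs of the gene in a group of cells scaled to a total of 1000000 UMIs. Cxcl2 in members ranged from 4879 to 10950 CPM over the libraries, with the lowest level in TO 4d 24h and the highest in TOE 4d 4h. Cxcl1 was at 477 CPM in members of TO 2d 0h and between 56.6 and 225 CPM in the other 7 libraries. Cxcl3 was at 561 CPM in TO 2d 0h, at 1273 CPM in TOE 4d 24h and between 63.7 and 169 CPM elsewhere. The value of 1273 CPM rested on 2 cells, and without the cell richest in Cxcl3 it was 30.9 CPM. In TO 2d 0h a Cxcl1 UMI was found in 30.2% and a Cxcl3 UMI in 26.2% of members, at a median of 3139.5 UMIs per cell. In that library 37.4% of B-lineage cells, which should lack these transcripts, also held a UMI of at least 1 of the 3 genes, with a median depth of 4559 UMIs, a share above that in the other 7 libraries, and 78 of the 215 Cxcl1 UMIs of its members came from 1 cell. Since the threshold was set on the sum of these genes, the gap between members and chemokine-low neutrophils is part of the rule.

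**Figure D1:**
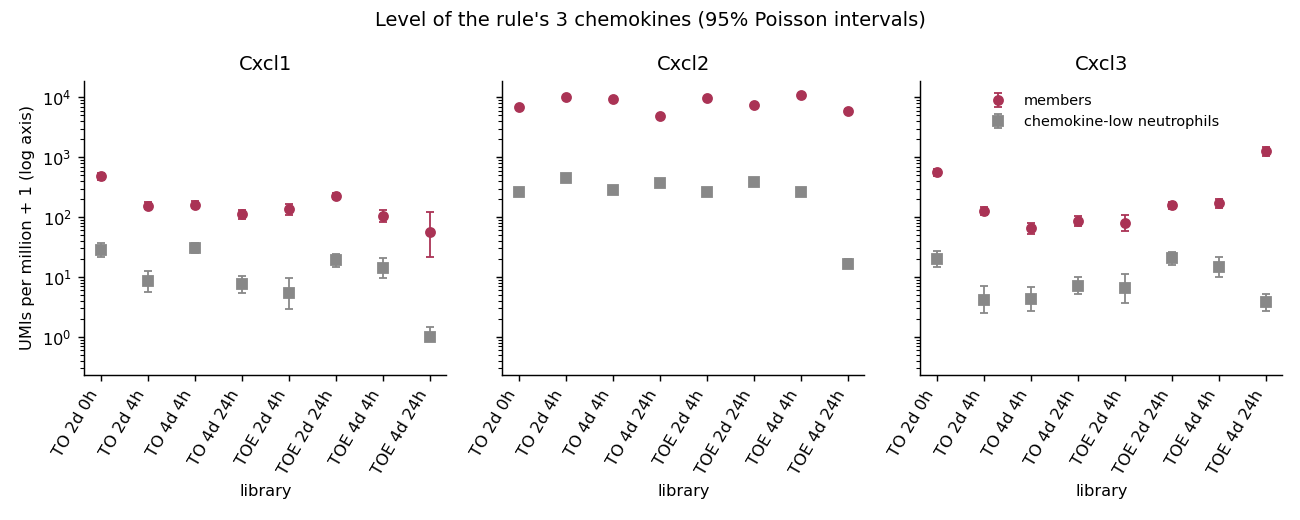
Level of Cxcl1, Cxcl2 and Cxcl3 in members (circles) and in chemokine-low neutrophils (squares) of each library, as CPM plus 1 on a log axis, with 95% Poisson intervals. Cxcl2 in members sits between 4879 and 10950 CPM in all 8 libraries, and in chemokine-low neutrophils TOE 4d 24h stands apart at 15.8 CPM.

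Members formed the upper end of a continuous range of chemokine content. The lowest members held 20.0 chemokine UMIs per 10000 and the highest chemokine-low neutrophils 19.97, 19.96 and 19.94. There were 195 members between 20 and 25 per 10000, and 286 chemokine-low neutrophils between 15 and 20. The median member held 56.9 per 10000 and the highest 1025. Members were shallower than chemokine-low neutrophils in every library, with a median of 2624 to 4160 UMIs per cell against 3533 to 5519.

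The neutrophil label was checked against genes that the rule did not use. The members' summed UMIs held Csf3r, the receptor for the growth factor G-CSF, at 236 CPM, Cxcr2 at 141 CPM, Mmp8 at 3443 CPM and Retnlg at 8746 CPM. All 12 markers listed for monocytes and macrophages were detected, and their summed level was 84.8 to 744 CPM in members against 167 to 855 CPM in chemokine-low neutrophils. The 7 measured B-lineage markers summed to 694 to 3016 CPM against 1480 to 3202 CPM, led by Ebf1. Cells with a doublet score of at least 0.25 were 68 of the members (2.29% to 4.80% per library) and 557 of the chemokine-low neutrophils (6.79% to 15.0%). Erythroid markers summed to 28.3 to 17326 CPM in members against 175 to 9091 CPM, and mesenchymal markers to 110 to 1761 CPM against 96.2 to 3708 CPM. The upper ends of the monocyte, erythroid and mesenchymal sums in members exceed the pooled levels of Csf3r and Cxcr2. The B-lineage sum exceeds them even in its lowest library. Of the 11 markers of T, NK, mast, dendritic and endothelial cells 10 were detected, with a sum of 32.7 to 59.3 CPM against 48.8 to 113 CPM, and the T-cell gene Cd3e was at 0 in members. The part of such transcripts in the results was not tested beyond the removals described with the test. No barcode was shared between the members of different libraries, although 3096 kept cells carried 1 of 1541 barcodes seen in more than 1 library, and the barcodes of 52 members were among them.

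Members were most frequent in the TO libraries from 4 h on and rarest in TOE 4d 24h. The share of kept cells was 0.868% for TO 2d 0h, 2.50% for TO 2d 4h, 2.78% for TO 4d 4h and 2.79% for TO 4d 24h. On the TOE side it was 0.738% for 2d 4h, 2.31% for 2d 24h, 1.08% for 4d 4h and 0.187% for 4d 24h. The last value stands for 23 cells, and its Clopper-Pearson interval was 0.118% to 0.280%. Intervals on shares, levels and ratios are at 95% and cover counting error only, not the difference between animals.

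In each of the pairs matched for day and hour the members' share of kept cells was lower in the TOE library. TOE divided by TO gave 0.295 (exact conditional interval, 0.239 to 0.362) for the 2d 4h pair, 0.387 (0.317 to 0.470) for the 4d 4h pair and 0.0669 (0.0419 to 0.102) for the 4d 24h pair. The share depends on how many neutrophils the library held at all. Neutrophils of the gate made up 2.52% of kept cells in TOE 2d 4h against 5.90% in its TO partner, and 3.15% in TOE 4d 4h against 7.70%. For 4d 24h the order was the other way, 13.01% in TOE against 10.3% in TO. Fewer neutrophils and more of the other cells cannot be told apart in such shares.

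Within the neutrophils of the gate, the members' share at 4 h was closer between the arms. For 2d 4h it was 29.3% in TOE against 42.4% in TO, a ratio of 0.690 (0.559 to 0.847). For 4d 4h it was 34.2% against 36.1%, a ratio of 0.946 (0.776 to 1.15). The interval of the 4d 4h pair covers 1. For 4d 24h the share was 1.43% in TOE against 27.1% in TO, a ratio of 0.0529 (0.0331 to 0.0805). The 2 libraries without a partner, TO 2d 0h and TOE 2d 24h, had shares of 22.2% and 40.05%.

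**Figure D2:**
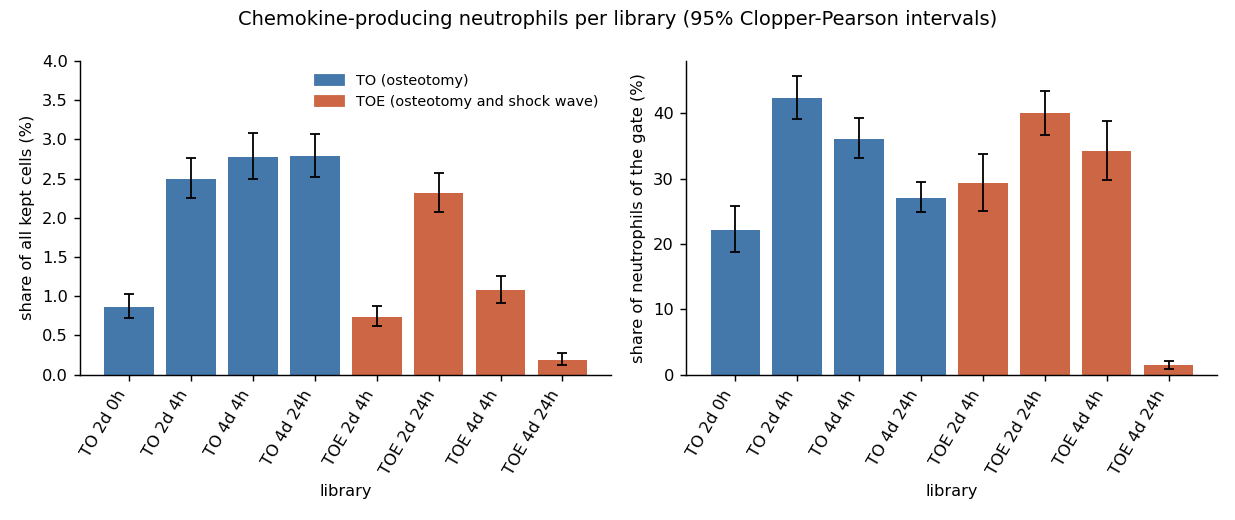
Share of members among all kept cells (left) and among the neutrophils of the gate (right) in percent for each library, with 95% Clopper-Pearson intervals. TOE 4d 24h is lowest on both scales, at 0.187% and 1.43%, while TOE 2d 24h reaches 2.31% and 40.05%.

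TOE 4d 24h stood apart in all its cells and not only in its members. Cxcl1, Cxcl2 and Cxcl3 together reached 50.5 CPM over all kept cells of this library, against 267 to 1112 CPM in the other 7 libraries. Of its chemokine-low neutrophils 4.05% held any chemokine UMI, against 30.1% to 58.2% in the others. With each cell thinned to 1000 UMIs these shares were 1.59% against 14.4% to 30.2%. B-lineage cells, which should lack these transcripts and give the level of free RNA, stood at 0.253% in TOE 4d 24h and at 1.79% to 8.85% elsewhere after thinning, below the chemokine-low neutrophils of the same library in each case. Members' low share in this library thus went with low chemokine levels in its chemokine-low neutrophils, its B-lineage cells and its cells as a whole, and the part of the library itself was not tested.

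Members held a variable part of the chemokine transcripts of the tissue. Their part of all Cxcl1, Cxcl2 and Cxcl3 UMIs was lowest in TO 2d 0h, at 2.41%, and highest in TO 4d 4h, at 23.4%. For Cxcl2 alone it reached 33.9% in TO 4d 4h, but for Cxcl1 it stayed between 0.279% and 2.13% in all 8 libraries. Other cells past the chemokine threshold, 4375 in number, held 53.2% to 85.8% of these UMIs. Of those cells, 93.8% fell short of the S100a8 and S100a9 threshold and 64.3% held a Csf1r UMI. Immature neutrophils, with granule transcripts above the threshold, held 0.561% to 2.82%.

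Members were then compared with the chemokine-low neutrophils of the same library, to describe what else goes with chemokine content. UMIs were summed per library over each group, and the 8 pairs of sums were tested with edgeR's quasi-likelihood test with library as a block and Benjamini-Hochberg adjustment at 0.05. Genes of the rule were left out. Of 8580 genes tested, 1898 were higher in members (22.1%) and 1710 were lower (19.9%), 42.1% in all. Of these, 627 were at a higher CPM in all 8 libraries and 1189 at a lower CPM in all 8, counted without TMM scaling. The split between higher and lower rests on how the sums are scaled. Under the TMM scaling used here 52.6% of the called genes were higher and the median log2 fold change over all tested genes was -0.08, whereas with library totals alone 18.1% were higher (997 genes higher, 4498 lower) and the median was -0.46. Log2 fold changes below are on the TMM scale, and lists are read against these medians. Because the members are shallower, the same test was made on cells thinned to 1000 UMIs, where 713 of 3998 genes were higher and 632 lower.

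The 12 genes with the largest log2 fold change among those higher in all 8 libraries, after 5 genes of the kinds left out (ribosomal, immunoglobulin, haemoglobin or without a symbol), were Il23a, Cd274, Il1b, Ccrl2, Ccl3, Csf1, Ralgds, Olr1, Hcar2, Hilpda, Srxn1 and Gpnmb. They include secreted mediators, Cd274 (the checkpoint ligand PD-L1), Olr1 (the scavenger receptor LOX-1) and Hcar2 (a receptor for nicotinic acid and ketone bodies). The 12 lower genes of the same kind were C1h9orf85, Kif15, Asf1b, Mad2l1, Cit, Knstrn, Fbxo5, Cenpe, Adsl, Rrs1, Kif11 and H2ac23, most of which act in mitosis or chromatin assembly. Their log2 fold changes ran from -2.05 to -1.78, and each rested on 13 to 53 UMIs in members. Of all 1710 genes lower, 777 were also lower with doublets removed and 263 with the marker-holding cells described below left out. Fewer genes were tested in both of these settings, and B-lineage markers were lower in members as well.

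**Figure D3:**
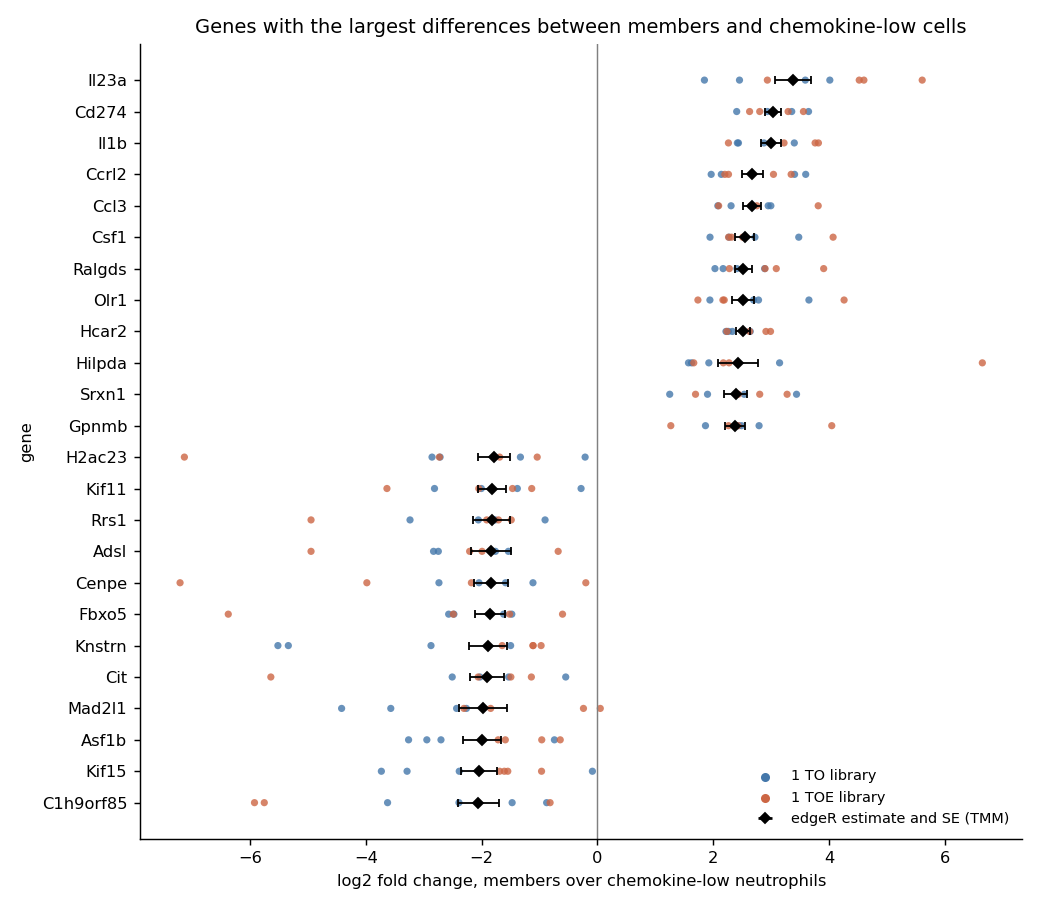
Log2 fold change of members over chemokine-low neutrophils for the 12 genes highest and the 12 genes lowest in members. Each point is 1 library after TMM scaling with a small prior count, blue for TO and orange for TOE. Black diamonds are the edgeR estimates, with SE derived from the quasi-likelihood F. Hilpda lies farther right in TOE 4d 24h, which holds 23 members, than in the other libraries, and the part of single cells in this point was not tested. Mad2l1 lies at 0.05 in TOE 2d 4h, although its CPM there was lower in members. Points below about -4 come from members with 0 or very few UMIs.

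Most tested cytokines and chemokines were higher in members. Of 16 tested cytokines and mediators, 14 were higher in members (87.5%, against 22.1% of all genes) and 1, Tnfsf14, was lower, with a median log2 fold change of 1.56. With library totals 11 were higher (median 1.18), against 997 of all 8580 genes. After thinning 7 of 10 were higher (median 1.32), against 713 of all 3998. With no filter on low counts 14 of 28 were higher (median 0.97), against 1767 of all 23128. Il1b, the main secreted interleukin-1, had 943 CPM in the lowest library of members, a median of 2632 and 4474 in the highest, against 60.5, 361 and 1151 CPM in chemokine-low neutrophils. Members exceeded the chemokine-low neutrophils of the same library in all 8, although the ranges overlap (log2 fold change 3.00 ± 0.17 SE, adjusted p = 7.31e-11).

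Il1a, which acts as an alarm signal, had a median of 29.6 CPM in members against 2.73 CPM, a log2 fold change of 3.70 ± 0.29 (SE, adjusted p = 4.93e-09). It was higher in 7 of the 8 libraries. In TOE 4d 24h no Il1a UMI was found in either group, and 3 UMIs in the members there would amount to 28.3 CPM. Il23a, a subunit of interleukin-23, ranged from 6.23 to 55.1 CPM in members and from 0 to 6.78 CPM in chemokine-low neutrophils (log2 fold change 3.38 ± 0.31 SE, adjusted p = 2.64e-08). The inhibitor of interleukin-1 signaling went the same way. Il1rn, the receptor antagonist, ranged from 500 to 891 CPM in members against 174 to 298 CPM, so the groups did not overlap (1.82 ± 0.10 SE). For comparison, levels did not overlap between the groups in 437 of 8580 genes, or 5.09%.

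Csf1, the growth factor of macrophages, had 72.3 to 403 CPM in members against 4.88 to 112 CPM (log2 fold change 2.54 ± 0.16 SE). Ptgs2, the inducible cyclooxygenase, had 159 to 621 CPM against 31.1 to 177 CPM (2.19 ± 0.13 SE). Vegfa was higher by 2.12 ± 0.15 (SE) and Il10 by 1.69 ± 0.30 (SE), whereas Tnf stood at 14.6 CPM over all members against 11.4 CPM, with a log2 fold change of 0.79 ± 0.25 (SE). Il6 passed the test at 0.65 ± 0.20 (SE) although its CPM was higher in only 3 of 8 libraries.

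The 5 tested chemokines outside the rule, Pf4, Ccl2, Ccl3, Ccl4 and Ccl6, were called higher in members, as were 22.1% of all genes. However, Ccl4 was at a higher CPM in 5 of 8 libraries and Pf4 in 6. With library totals or DESeq2 4 of 5 were called higher, against 997 and 1779 of all 8580 genes. With no library block 3 were, against 1263 of all 8580. With no filter on low counts 6 of 22 were called higher (median 0.55), against 1767 of all 23128. Ccl3, which attracts monocytes and neutrophils, among others through Ccr1, had 1012 CPM in the lowest library, a median of 2125 and 3350 in the highest, against 75.3, 468 and 786 CPM (2.67 ± 0.16 SE, adjusted p = 8.99e-11). The ranges of the groups did not overlap. Ccl2, which attracts monocytes, ranged widely in members, from 46.5 to 882 CPM, and was higher in 7 of 8 libraries (2.13 ± 0.29 SE). A further 18 chemokine genes fell below the count filter, with 0 to 97 UMIs over all members, and Cxcl5 was not among the listed genes.

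Of 19 tested cytokine and chemokine receptors 15 were higher (78.9%, against 22.1% of all genes) and 1 was lower (5.26%, against 19.9%). The median log2 fold change was 0.65. With library totals 10 were higher (median 0.28), against 997 of all 8580 genes. With doublets removed 10 were higher (median 0.36), against 1345 of all 7464. Ccrl2, which encodes a chemokine receptor-like protein, was highest at 2.68 ± 0.18 (SE), with 28.3 to 244 CPM in members against 5.41 to 61.6 CPM. Ccr1, a receptor for Ccl3, was higher by 1.43 ± 0.10 (SE), Tnfrsf1b by 1.39 ± 0.10 (SE), and the decoy receptor Il1r2 by 1.00 ± 0.12 (SE). Cxcr2, the receptor of the chemokines in the rule, did not pass the test, at 141 CPM over all members and 151 CPM over chemokine-low neutrophils (0.29 ± 0.16 SE). Ccr2, typical of monocytes, was lower (-1.66 ± 0.27 SE) at 5.94 CPM against 17.9 CPM.

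Of 24 pattern recognition genes, 16 were higher (66.7%, against 22.1% of all genes) and 2 were lower (8.33%, against 19.9%), with a median of 0.86. With library totals 13 were higher and 5 lower (median 0.48), against 997 and 4498 of all 8580 genes. Clec4e, the lectin receptor Mincle, had 711 to 1396 CPM in members against 191 to 442 CPM, with no overlap (2.04 ± 0.12 SE). Nlrp3, the sensor of the inflammasome that releases mature interleukin-1β, had 368 to 1186 CPM against 132 to 455 CPM (1.98 ± 0.12 SE). Irak2, an adaptor of Toll-like receptor signaling, was higher by 1.76 ± 0.10 (SE) and Tlr2 by 1.65 ± 0.13 (SE). The formyl peptide receptors Fpr1 and Fpr2 went the other way, at -0.59 ± 0.12 and -0.44 ± 0.11 (SE), and both were at a lower CPM in all 8 libraries.

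Of 26 NF-κB genes tested, 22 (84.6%, against 22.1% of all genes) were higher in members and 1, Cd83, was lower, with a median of 0.91, and with library totals 19 were higher and the median was 0.54. Nfkbia, which encodes IκBα and whose promoter window is shown above, had 2771 CPM in the lowest library of members, a median of 4660 and 7177 in the highest, against 297, 1406 and 2994 CPM (2.13 ± 0.14 SE, adjusted p = 4.44e-10). Tnfaip3, the inhibitor A20, had 197 to 575 CPM against 28.6 to 227 CPM (2.00 ± 0.19 SE). Traf1 was higher by 2.19 ± 0.12 (SE), Ier3 by 1.87 ± 0.19 (SE), and Sod2, the mitochondrial superoxide dismutase, by 1.16 ± 0.10 (SE). Rela, the main activating subunit, had 43.7 CPM against 37.1 CPM over the groups (0.48 ± 0.12 SE).

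Immediate-early genes respond to stimulation within minutes and also to tissue dissociation. Of 27 such genes 26 were higher (96.3%, against 22.1% of all genes), with a median of 1.05. With library totals 21 were higher (median 0.70), against 997 of all 8580 genes. Maff had 54.3 to 200 CPM in members against 8.57 to 44.2 CPM, with no overlap (2.29 ± 0.16 SE), and Csrnp1 was higher by 2.02 ± 0.16 (SE). Junb was higher by 1.38 ± 0.11 (SE) and Fosb by 1.22 ± 0.12 (SE). Jun did not pass the test and stood at 859 CPM over all members against 1295 CPM (-0.26 ± 0.10 SE). Heat shock genes did not share one direction. Of 17 tested, 8 were higher (47.1%, against 22.1% of all genes) and 5 were lower (29.4%, against 19.9%), with a median of -0.26. The higher ones include Hspa5, Ddit3, Trib3 and Atf4 of the unfolded protein response and Srxn1 and Txnrd1 of the oxidative stress response, and the 5 lower ones were the chaperones Hspa1b, Hsph1, Hspd1, Hspe1 and Hspa8. The sign of this median changed between settings. It was lowest with library totals, at -0.65 against -0.46 over all genes. The highest value, 0.19, came with comparison cells that held no chemokine UMI.

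Genes of the mature neutrophil surface and granules divided. Of 24 tested, 10 were higher (41.7%, against 22.1% of all genes) and 2 were lower (8.33%, against 19.9%), with a median of 0.28. The counts moved with the setting. With library totals 7 were higher and 7 lower, against 997 and 4498 of all 8580 genes, and the median of -0.06 stayed above the -0.46 over all genes. After thinning 6 were higher and 5 lower of 23 (median -0.10), against 713 and 632 of all 3998. With the marker-holding cells described below left out it was 4 and 8 (median -0.14), against 873 and 672 of all 4817. Without TOE 4d 24h it was 14 and 1 (median 0.36), against 1936 and 1967 of all 8569. G0s2, an inhibitor of lipolysis, had 3111 to 5925 CPM in members against 314 to 2229 CPM, with no overlap (2.30 ± 0.16 SE). The antiprotease Slpi was higher by 1.43 ± 0.12 (SE) and the integrin chain Itgb2 by 0.86 ± 0.12 (SE). Cd177, a neutrophil surface antigen, had 37.4 to 183 CPM in members against 146 to 345 CPM and was lower in all 8 libraries (-1.28 ± 0.15 SE, adjusted p = 1.24e-06). Mmp8 (-0.01 ± 0.14 SE), Retnlg (0.25 ± 0.14 SE), Lyz2 (0.29 ± 0.15 SE) and Anxa1 (-0.02 ± 0.13 SE) did not pass the test.

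Of 12 early neutrophil genes tested, 2 were higher (Elane and Ctsg), a share of 16.7% that is below the 22.1% over all genes. Another 5 (41.7%, against 19.9% over all genes) were lower (Fcnb, Cebpe, Cd24, Mki67 and Top2a). Without TOE 4d 24h 4 were higher and 5 lower, against 1936 and 1967 of all 8569 genes. With library totals none was higher and 7 were lower, against 997 and 4498 of all 8580. With marker-holding cells left out it was 1 and 2 of 8, against 873 and 672 of all 4817. Top2a, a marker of dividing cells, had 13.1 to 47.1 CPM in members against 69.6 to 190 CPM, with no overlap (-1.74 ± 0.17 SE, adjusted p = 5.41e-08). Mki67 was lower in all 8 libraries as well (-0.96 ± 0.15 SE). Elane, at 62.5 CPM over members and 50.3 CPM over chemokine-low neutrophils, was higher by 0.70 ± 0.15 (SE), but with library totals the value was 0.33 and did not pass.

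B-lineage markers moved with these genes. Of 7 tested, 6 were lower in members (85.7%, against 19.9% of all genes) and none was higher. Cd79a had 100 to 267 CPM in members against 249 to 423 CPM (-0.81 ± 0.12 SE), and Igll1 4.13 to 20.4 CPM against 21.1 to 125 CPM (-1.58 ± 0.21 SE). With cells of high doublet score removed, 1 of 5 B-lineage markers was lower, against 1126 of all 7464 genes. A second removal left out every cell that held a UMI of Mki67, Top2a, Cd79a, Cd79b or Vcan, and then none of 2 was lower. That result was partly fixed in advance, since the removal itself sets Cd79a and Cd79b at 0. That second removal, chosen after the data were seen, left 873 genes higher and 672 lower of 4817 tested, and 821 of the higher genes and 263 of the lower genes were also called that way in the full comparison, while 4 genes went from lower to higher. The part of B-lineage transcripts in the other genes called lower was not tested further. Of the other lists, monocyte and macrophage markers gave 0 higher and 2 lower of 7 (28.6%, against 19.9% of all genes). No marker of erythroid cells, of mesenchymal cells or of the T, NK, mast, dendritic and endothelial list passed.

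Effector and metabolic genes were led by Nos2. This inducible nitric oxide synthase had 2168 CPM in the lowest library of members, a median of 4236 and 7040 in the highest, against 263, 1356 and 2263 CPM (2.16 ± 0.14 SE, adjusted p = 2.08e-10). Acod1, which makes itaconate, was higher by 2.13 ± 0.14 (SE), Hmox1 by 2.01 ± 0.15 (SE) and Arg2 by 1.57 ± 0.13 (SE). In the NADPH oxidase, Cybb, the catalytic subunit, was lower (-0.54 ± 0.11 SE) while Ncf4 (0.68 ± 0.10 SE) was higher. Of 23 hypoxia and glycolysis genes 17 were higher (73.9%, against 22.1% of all genes) and none lower, with a median of 0.58. With library totals 10 were higher (median 0.19), against 997 of all 8580 genes. Slc2a1, the glucose transporter GLUT1, was higher by 1.75 ± 0.15 (SE), Pfkfb4 by 1.55 ± 0.12 (SE) and Hif1a by 1.22 ± 0.14 (SE), whereas Slc2a3 (0.11 ± 0.14 SE) and Gapdh (0.15 ± 0.12 SE) did not pass.

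Of 18 survival and apoptosis genes, 11 were higher (61.1%, against 22.1% of all genes) and none was lower, with a median of 1.10. With library totals 11 were higher and 4 lower, against 997 and 4498 of all 8580 genes. The anti-apoptotic genes Bcl2a1 and Mcl1 were higher by 2.04 ± 0.14 and 1.47 ± 0.11 (SE). Bcl2a1 had 170 CPM in the lowest library of members, a median of 812 and 1811 in the highest, against 80.4, 253 and 399 CPM. The kinase gene Pim1 was higher by 1.95 ± 0.11 (SE), as was Cflar by 1.55 ± 0.12 (SE). Pmaip1 (1.70 ± 0.14 SE) and Bcl2l11 (1.39 ± 0.20 SE), which promote apoptosis, were higher too. Of 20 interferon-stimulated genes 10 were higher (50%, against 22.1% of all genes) and 2 were lower (10%, against 19.9%), with a median of 0.42. With library totals the median was 0.04, against -0.46 over all genes. Ifit3 was higher by 1.99 ± 0.16 (SE), Isg15 by 1.64 ± 0.19 (SE) and Ifit2 by 1.39 ± 0.10 (SE).

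Some of the genes were also followed over chemokine content. Neutrophils of the gate were divided into bands of 0, over 0 to under 5, 5 to under 20, 20 to under 50, 50 to under 100 and at least 100 chemokine UMIs per 10000, with 3366, 869, 1080, 815, 536 and 536 cells. The genes followed were chosen after their values were seen, and the bands describe and do not test. Il1b had 202, 338, 945, 1490, 2651 and 6066 CPM from the lowest to the highest band. Nfkbia had 822 CPM in the lowest band and 7901 CPM in the highest, Nos2 663 and 6470 CPM, Hcar2 517 and 5449 CPM, and Cd274 14.2 and 562 CPM. The highest band exceeded the band at 0 in 8 of 8 libraries for each of these genes, although in TOE 4d 24h it held only 4 cells. Cd177 fell from 298 to 51.6 CPM and Top2a from 133 to 21.0 CPM, with no library going the other way. Not every gene followed was graded, and Fcnb had 165, 379, 192, 100.3, 82.1 and 56.3 CPM. Of the cells in the lowest band 1517 came from TOE 4d 24h, and without that library Il1b still ran from 323 to 6119 CPM over 1849 to 532 cells.

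**Figure D4:**
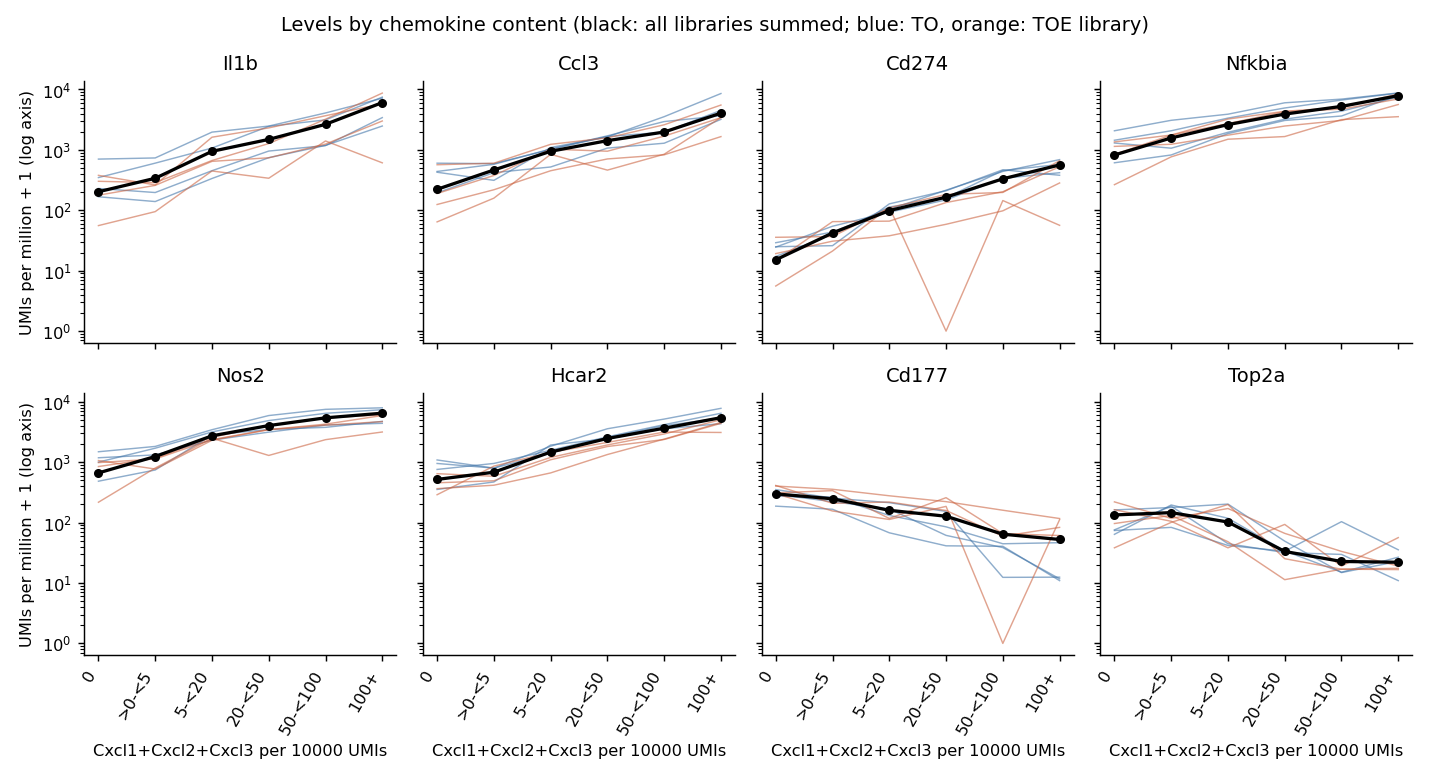
Level of 8 genes in neutrophils of the gate by band of Cxcl1, Cxcl2 and Cxcl3 UMIs per 10000 (x axis), as CPM plus 1 on a log axis. Black is the sum over all libraries, thin lines are single TO (blue) and TOE (orange) libraries; Il1b climbs from 202 to 6066 CPM while Cd177 goes from 298 to 51.6 CPM, and the orange points at the floor of the Cd274 and Cd177 panels are bands of TOE 4d 24h with 7 and 12 cells.

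The members' levels in TOE and TO were set side by side without a test, with 1 library on each side of a pair. Pairs are given in the order 2d 4h, 4d 4h and 4d 24h. Nos2 was at 4992 CPM in TOE against 7040 in TO for 2d 4h, at 4592 against 6195 for 4d 4h and at 2168 against 3496 for 4d 24h, ratios of 0.709 (0.680 to 0.739), 0.741 (0.712 to 0.772) and 0.620 (0.541 to 0.708). Hcar2 had ratios of 0.653 (0.616 to 0.691), 0.769 (0.733 to 0.806) and 0.650 (0.577 to 0.731) in the same order. Cd274 had ratios of 0.305 (0.237 to 0.387), 0.764 (0.649 to 0.897) and 0.388 (0.175 to 0.748). These 3 genes were chosen after their values were seen, and in them the TOE library was lower in each pair by more than counting error. Of the 127 named genes tested, 34 had a lower CPM in TOE in all 3 pairs and 15 a higher one, against 916 (10.7%) and 1563 (18.2%) of all 8580 genes. Chemokine-low neutrophils were lower in TOE as well, with ratios of 0.551, 0.717 and 0.170 for Nos2, 0.388, 0.734 and 0.277 for Hcar2 and 0.414, 0.925 and 0.123 for Cd274, of which the interval of 0.925 covers 1 (0.695 to 1.22). Il1b was closer to 1, at 0.877 (0.835 to 0.920), 0.927 (0.886 to 0.969) and 0.766 (0.619 to 0.938), against 0.322, 0.994 and 0.213 in chemokine-low neutrophils. Ccl3 had no common direction, with 0.378 (0.346 to 0.413), 1.13 (1.06 to 1.20) and 0.534 (0.442 to 0.640). Ccl2 likewise had 0.412 (0.264 to 0.622), 1.86 (1.51 to 2.29) and 0.118 (0.0536 to 0.225). Serpinb1a, an inhibitor of neutrophil proteases, was higher in TOE at both 4 h times, with 5.88 (5.31 to 6.51) and 4.12 (3.68 to 4.62), and had 0.927 (0.361 to 2.00) at 4d 24h. Serpinb1a moved alike in chemokine-low neutrophils, with ratios of 4.39 (4.13 to 4.66), 3.67 (3.44 to 3.92) and 0.922 (0.835 to 1.02).

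Members' levels also went with the hour of collection. This pattern was noticed after the values were seen and is described with no test. In the 4 libraries taken at 4 h, Il1b in members was between 3921 and 4474 CPM, against 943 to 1343 CPM in the 4 libraries taken at 0 h or 24 h. Plaur, the urokinase receptor, was at 2684 to 3670 CPM against 782 to 1428 CPM, Ptgs2 at 473 to 621 against 159 to 242, Maff at 152 to 200 against 54.3 to 68.7, and Il1a at 44.0 to 92.6 against 0 to 15.2 CPM. Nfkbia was at 5176 to 7177 CPM against 2771 to 4143 CPM. Levels at 4 h were lower without overlap for Retnlg (5080 to 7166 against 9918 to 13998 CPM) and Cyba (648 to 727 against 764 to 961 CPM). Genes of the rule are described only, since it conditions their levels. S100a8 was at 27236 to 32737 CPM at 4 h against 45794 to 58101 CPM, and Cxcl2 at 9267 to 10950 against 4879 to 7569 CPM. The median chemokine content per member, 67.3 to 86.9 UMIs per 10000 at 4 h against 39.98 to 58.2 in the others, thus divided by hour in the same way, and its part in the hour pattern was not tested. Markers of other cells went with the hour too. The osteoblast gene Bglap was at 13.4 to 24.1 CPM in members at 4 h against 162 to 425 CPM, and Cd74, of antigen-presenting cells, at 123 to 246 CPM against 18.9 to 117 CPM. Both divided the chemokine-low neutrophils in the same direction, and their part in the hour pattern was not tested.

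Over all 8580 genes, the 4 h libraries lay above the others without overlap in 772 (9.00%) and below them in 351 (4.09%). In chemokine-low neutrophils the counts were 1326 and 283, and 429 of the 772 genes were also higher at 4 h there. Among the 127 named genes that were tested, 31 were higher at 4 h and 5 were lower in members, against 25 and 4 in chemokine-low neutrophils. Il1b, Ptgs2, Plaur, Retnlg and Cyba divided the chemokine-low neutrophils by hour in the same direction as the members. Il1a, Maff and Nfkbia overlapped there. The 4 h libraries include both arms and both days, but animals, handling and hour cannot be told apart with 1 library per condition.

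**Figure D5:**
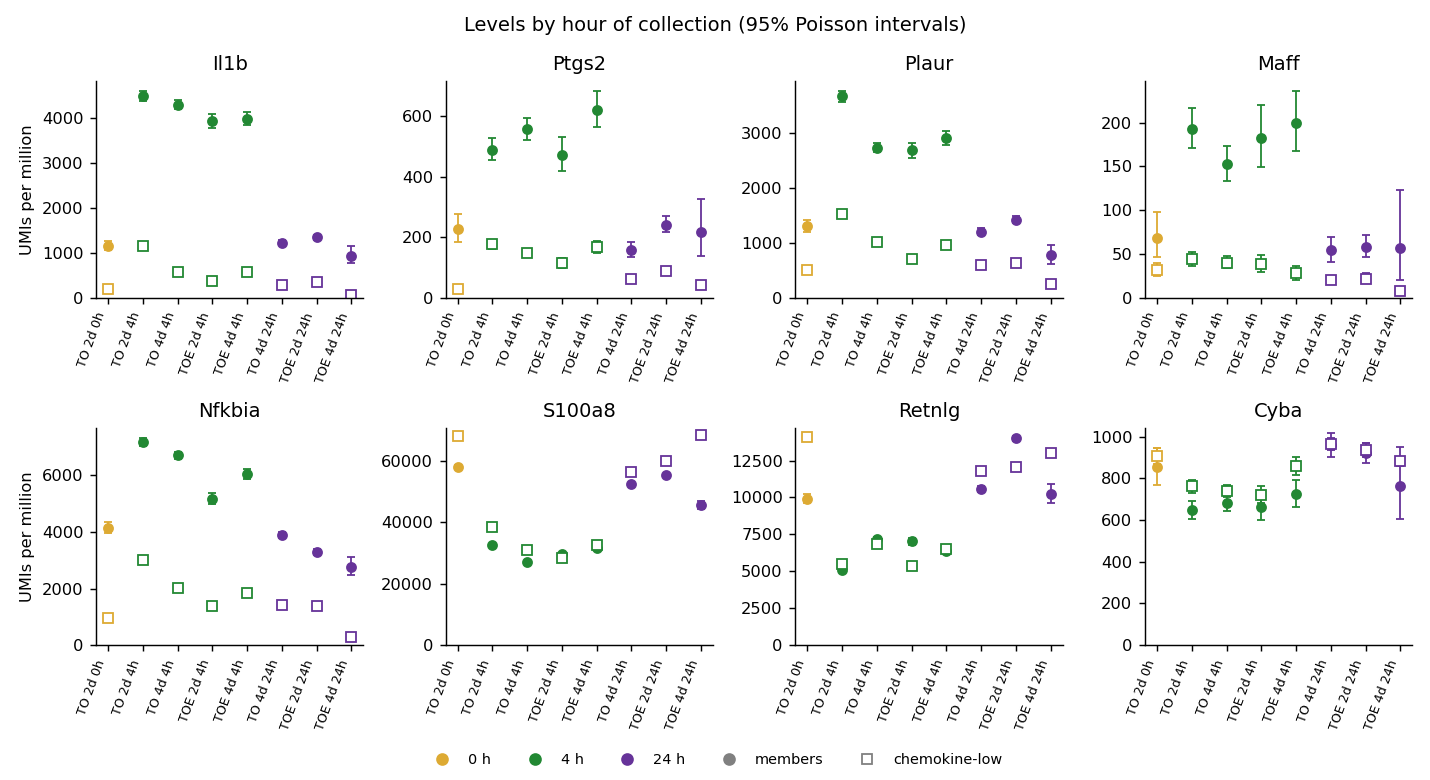
Level of 8 genes in members (filled circles) and chemokine-low neutrophils (open squares) of each library, in CPM with 95% Poisson intervals, coloured by the hour of collection (0, 4 or 24 h). In members, the 4 libraries at 4 h lie above the others for Il1b, Ptgs2, Plaur, Maff and Nfkbia and below them for S100a8, Retnlg and Cyba.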

How the data were processed

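The authors deposited, for each library, a matrix of UMI counts per gene and barcode, not normalized. The submitters' processing notes list Cell Ranger 9.0.0, Seurat and R 4.0.3 and the builds mRatBN7.2 and GRCh38, and give none of them a role. The members, the gene lists and the comparisons were chosen with earlier results of these data known. The matrices list 41801 genes and 116711 barcodes, of which 114232 passed the filter. Scrublet scores (scanpy 1.11.5, 8% of doublets assumed) were used to describe the cells and for an alternative without doublets, and removed no cell otherwise.

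UMI counts were summed per library over members and over chemokine-low neutrophils and tested with edgeR 4.0.16 in R 4.3.3 (filterByExpr, TMM, glmQLFit and glmQLFTest) with library as a block. Summed members held 106085 to 1568738 UMIs per library. All 8 libraries held at least 10 members and entered. The test returns no SE, so each SE of a log2 fold change was derived as its absolute value over the square root of the quasi-likelihood F. DESeq2 1.42.0 was an alternative. The step was tested on simulated data. A replicate here is the library, and since the libraries differ in condition, p-values measure how evenly a difference between cell groups recurs over them. Genes named were those of the rule, the 12 called genes with the largest positive and the 12 with the largest negative log2 fold change (at least 100 UMIs, the same sign of the CPM difference in every library, no ribosomal, immunoglobulin or haemoglobin genes and none without a symbol), and from each list up to 4 by level in members and up to 4 by size of change. Genes beyond these, in the counts of lists, in the bands and in the hours, were singled out after their values were seen. Levels have exact Poisson, shares Clopper-Pearson and ratios exact conditional intervals at 95%. Figures were drawn with matplotlib 3.10.9, and python 3.11.15, numpy 2.4.6, scipy 1.17.1 and pandas 2.3.3 were used. Counts of overlapping or paralogous genes, such as Hbb and Hba-a genes and Hspa1a and Hspa1b, are uncertain between copies.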

Additional observations from a re-analysis of the deposited data

Results flagged for a closer look

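For the share of the gate and for Cxcl2, Cxcl3, Ccl2 and Ccl3 in members, the ratio of TOE over TO had intervals on opposite sides of 1 in different pairs. The difference between pairs was not tested, and each condition was 1 library. For neutrophils of the gate as a share of kept cells, the ratio was 0.427 for 2d 4h, 0.409 for 4d 4h and 1.27 for 4d 24h. Ccl3 in members had ratios of 0.378, 1.13 and 0.534 and Ccl2 0.412, 1.86 and 0.118 for the same pairs. Cxcl2 and Cxcl3 belong to the rule that chose the members, so their ratios are a description only. Cxcl2 in members had ratios of 0.968, 1.18 and 1.21. Cxcl3 in members had ratios of 0.632, 2.66 and 14.7 in the same order, and the last of these rested on 2 of the 23 members of TOE 4d 24h. In TO 2d 4h 1 cell held 80 of the 180 Cxcl3 UMIs, and in TOE 4d 4h 1 cell held 50 of 117. Without the richest cell on each side, Cxcl3 was at 62.5 CPM in TOE against 69.96 CPM in TO for 2d 4h. For 4d 4h it was at 97.4 against 50.5 CPM, and for 4d 24h at 30.9 against 80.2 CPM. The direction of the 4d 24h pair thus turned.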

How the results depend on the processing

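The counts of 1898 genes higher and 1710 lower became 1263 and 1072 with no library block, 713 and 632 after thinning to 1000 UMIs, 873 and 672 with cells holding a cycling, B or monocyte marker UMI left out, and 997 and 4498 with library totals without TMM, the last 2 chosen after seeing the data. With Scrublet doublets removed, 1345 genes were higher and 1126 lower, of which 1315 and 777 were called that way with all cells. Thinning, doublet removal and the marker removal also left fewer genes to test (3998, 7464 and 4817), and the cause of the other changes was not tested. Leaving out 1 library at a time gave 1600 to 1936 genes higher and 1389 to 1967 lower. No paired analysis by replicate number was possible because each condition has 1 library, so the library was the block. Of 101 named genes called, Ebf1 turned to 0.047 with marker cells left out and Vcan to 0.18 against cells with no chemokine UMI. With no library block 90 of the 101 calls stayed and 11 were lost. With doublets removed 79 stayed and 9 were lost, after thinning 76 and 4, and with marker cells left out 67 and 10. The rest of the 101, apart from Ebf1, had no result in those settings, where fewer genes were tested. Of the 26 named genes not called, 16 passed in at least 1 of 20 settings, 4 higher and 12 lower. The ratios of TOE over TO of the members' shares stayed within their intervals in every alternative run, whereas the shares themselves moved with the chemokine threshold (10 or 40 per 10000). TOE 4d 24h rests on 23 members.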
